A study of Mus musculus with 7 samples.

Results

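Intercalated cell acid-base genes were followed in kidney RNA from control, diabetic and SGLT2 inhibitor-treated diabetic mice. The genes were 10 that were chosen by name, namely Slc4a1, Slc26a4, Slc4a9, Atp6v1b1, Atp6v0d2, Atp6v0a4, Atp6v1g3, Foxi1, Rhbg and Rhcg. All 10 were found among the 17537 genes of the expression table, and all 10 were among the 13976 genes tested, which reached 1 CPM (read counts divided by the effective size of the library) in 2 or more libraries. Polyadenylated RNA of whole renal tissue was sequenced from wild-type C57BL/6 mice that entered the experiment at 8 to 10 weeks of age. In the diabetic groups hyperglycemia was induced by streptozotocin (STZ, a toxin of the insulin-producing beta cells) at 60 mg/kg on 5 consecutive days. The 2 DM-22 libraries came from diabetic mice left hyperglycemic until week 22. The 2 DM+SGLT2i libraries came from diabetic mice that received dapagliflozin, a blocker of the glucose transporter SGLT2 in the proximal tubule, given with the drinking water at 25 mg/kg over the last 6 weeks, after 16 weeks of hyperglycemia. The 3 control libraries (C, replicates 2, 8 and 9) came from mice of the same age that received sodium citrate in place of STZ. STZ diabetes destroys beta cells, so it models insulin deficiency, and non-diabetic mice given dapagliflozin were not analysed here. The sample labels name male mice only, whereas the methods name both sexes for the strain, and no sex was assigned to a library here.

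Intercalated cells are scattered through the connecting tubule and collecting duct, where they set the final acid and base content of the urine. Type A cells pump protons into the urine with the vacuolar H+-ATPase (V-ATPase) and return bicarbonate to the blood through the anion exchanger AE1, encoded by Slc4a1. Type B cells secrete bicarbonate through pendrin (Slc26a4) and carry the basolateral exchanger AE4 (Slc4a9), and cells called non-A non-B carry pendrin as well. The transcription factor Foxi1 is needed for the intercalated cell fate, and the Rh glycoproteins Rhbg and Rhcg carry ammonia across the cells of this part of the nephron. In whole kidney RNA, fewer cells of a type and less RNA per cell cannot be told apart.

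Promoter sequences are shown for a proton pump gene with the forkhead motif GTAAACA and for a proton pump gene and the pendrin gene without it. A forkhead motif was used since Foxi1 is itself a forkhead factor. Only this exact sequence and its reverse complement were searched, so looser forkhead matches were not counted. The sequences shown are the 250 bases before the RefSeq gene start (GRCm38.p6), written 5′ to 3′ on the strand of the gene. The capitals mark the motif TGTTTAC, which is the reverse complement of GTAAACA.
Atp6v1b1: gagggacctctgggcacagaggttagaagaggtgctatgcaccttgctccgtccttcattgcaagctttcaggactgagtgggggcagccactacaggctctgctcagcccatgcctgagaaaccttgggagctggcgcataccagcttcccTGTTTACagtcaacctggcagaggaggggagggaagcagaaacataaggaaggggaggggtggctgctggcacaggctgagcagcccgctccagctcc
Atp6v1g3: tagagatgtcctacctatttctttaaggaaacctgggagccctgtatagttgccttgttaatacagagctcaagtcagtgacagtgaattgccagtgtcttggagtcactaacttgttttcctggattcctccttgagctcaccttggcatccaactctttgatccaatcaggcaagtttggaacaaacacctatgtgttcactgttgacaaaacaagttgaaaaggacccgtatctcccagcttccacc
Slc26a4: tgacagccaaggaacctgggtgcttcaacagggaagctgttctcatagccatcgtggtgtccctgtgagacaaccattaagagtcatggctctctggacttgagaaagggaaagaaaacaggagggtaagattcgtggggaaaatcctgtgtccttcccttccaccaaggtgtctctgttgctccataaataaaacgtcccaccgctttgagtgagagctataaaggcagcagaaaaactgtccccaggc
The windows lie at chr6:83742767-83743016 on the plus strand for Atp6v1b1, at chr1:138273488-138273737 on the plus strand for Atp6v1g3 and at chr12:31559985-31560234 on the minus strand for Slc26a4. A promoter was used for 6 of the 10 genes, the other 3 being Atp6v0a4, Foxi1 and Rhcg. The motif, searched on both strands from 250 bases before to 50 bases after the start, was found in 1 of these 6, in Atp6v1b1, where it begins 98 bases before the start. Among all 32851 promoters of the table, 1199 (3.65%) held it. A match describes the letters and not a bound site.

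Each library held 46456125 to 56541594 reads on the listed genes, and the lowest count behind any value of the 10 genes was 150 reads, for Rhbg in C replicate 9. The labels do not state whether the libraries of a group came from separate mice, so the p-values measure the spread between these libraries. Of the 7 libraries, C replicate 2 and both DM-22 libraries stood apart in the RNA levels of injury or segment markers. In C replicate 2 the summed level of 6 tubular injury markers was 6236 CPM, against 931 and 761 CPM in the other controls, and the 8 proximal tubule markers summed to 8594 CPM, against 21427 and 19131 CPM. In DM-22 replicate 1 the 5 thick ascending limb markers summed to 13382 CPM and the inner medullary urea transporter Slc14a2 reached 267 CPM, against 3235 and 2.84 CPM in DM-22 replicate 2. The 5 markers of the distal convoluted tubule summed to 674 CPM in DM-22 replicate 1 and to 2312 CPM in DM-22 replicate 2, the lowest and the highest of the 7 libraries. DM-22 replicate 2 also had the highest sums of connecting tubule markers (5571 CPM, next 4218 CPM) and podocyte markers (771 CPM, next 574 CPM). In DM+SGLT2i replicate 1 the urothelial genes Krt5 and Upk1b were at 34.7 and 31.8 CPM, against 0.307 and 0.903 CPM in DM+SGLT2i replicate 2. Values without C replicate 2 or a DM-22 library are given beside the results they move most.

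Slc4a1 was the highest in C replicate 2 and in DM-22 replicate 1, and its levels in controls spanned those of the diabetic groups. Slc4a1 lies at chr11:102348824-102366203 (GRCm38, minus strand) and encodes the basolateral chloride-bicarbonate exchanger of type A cells. Its level was 116, 55.7 and 47.7 CPM in C replicates 2, 8 and 9, 112 and 87.0 CPM in DM-22 replicates 1 and 2, and 61.5 and 79.1 CPM in DM+SGLT2i replicates 1 and 2. Both DM-22 libraries lay above both DM+SGLT2i libraries, and C replicate 2 lay above all of them. The log2 fold change of DM-22 over C was 0.54 with a standard error (SE) of 0.38 (limma, adjusted p = 0.804), and that of DM+SGLT2i over DM-22 was -0.49 with an SE of 0.42 (adjusted p = 0.881). Without C replicate 2 the difference between DM-22 and C was 0.93 with an SE of 0.19 (unadjusted p = 0.00307, adjusted p = 0.0927), so it did not pass the adjusted threshold of 0.05 either. Slc4a1 is also the band 3 protein of red blood cells. Alas2, the erythroid heme synthesis enzyme, was at 32.8, 7.98 and 4.42 CPM in the controls, 25.8 and 25.9 CPM in DM-22, and 21.1 and 13.9 CPM in DM+SGLT2i. C replicate 2 and the DM-22 libraries thus had the highest values of both Alas2 and Slc4a1. Epb42, the gene of the red cell membrane protein 4.2, did not follow them, with 0.733, 1.75 and 1.39 CPM in the controls, 0.432 and 0.925 CPM in DM-22, and 1.08 and 0.921 CPM in DM+SGLT2i, and the globin genes were not analysed here. The part of red cells in the Slc4a1 values was not tested.

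**Figure D1:**
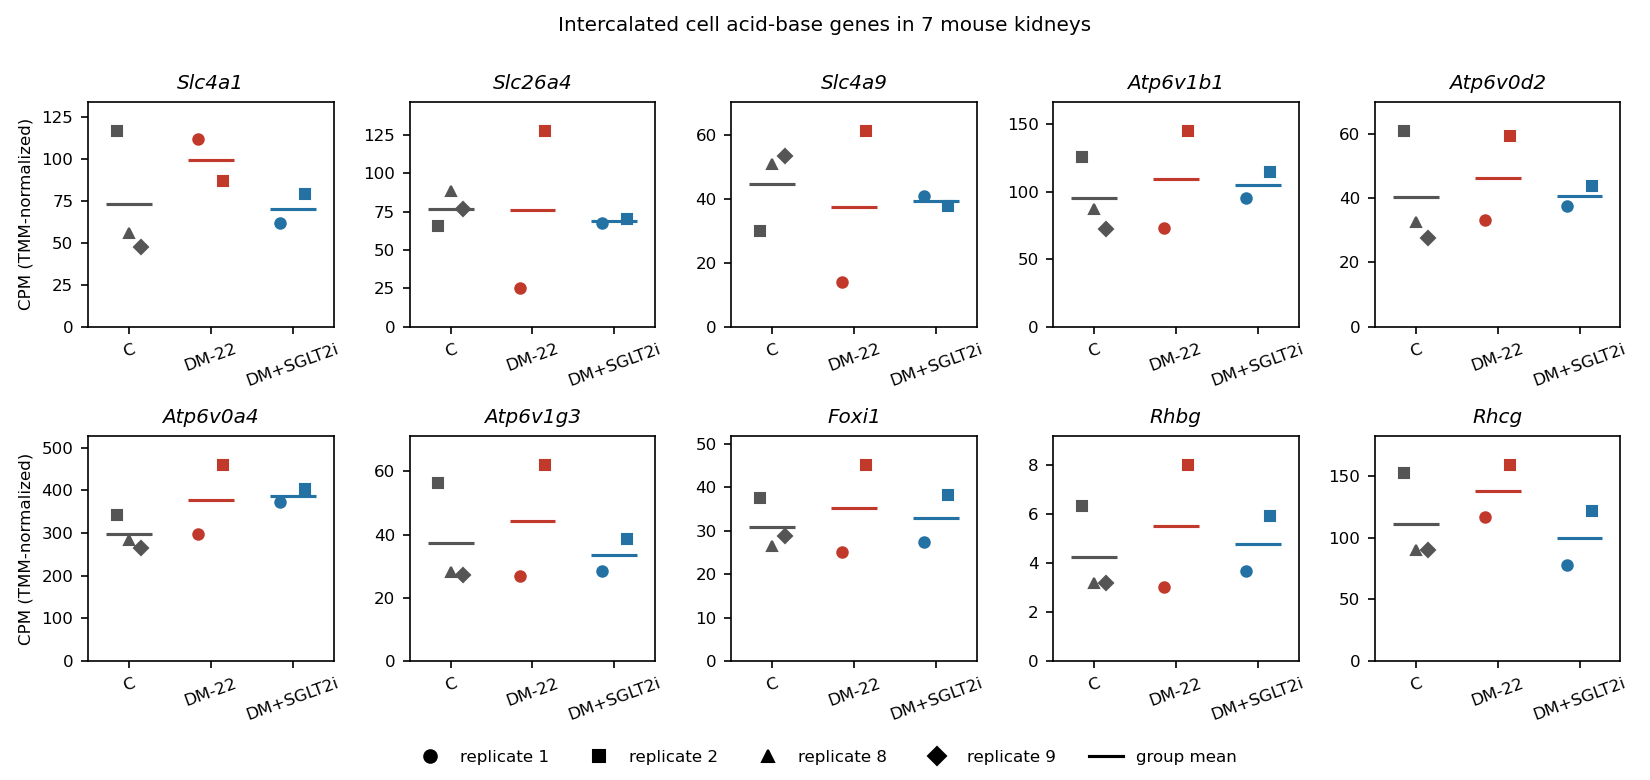
Level of each of the 10 intercalated cell acid-base genes in CPM (vertical axis, linear from 0) by group (horizontal axis). Each symbol is 1 library, its shape gives the replicate and the bar gives the group mean. DM-22 replicate 2 is the highest of the 7 libraries for 8 of the genes, and DM-22 replicate 1 is far below it for Slc26a4 and Slc4a9.

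The pendrin gene and the AE4 gene moved together across libraries and differed most within the DM-22 group. Slc26a4 (chr12:31519827-31559969, minus strand) encodes the apical chloride-bicarbonate exchanger of type B and non-A non-B cells. Its level was 65.5, 88.1 and 76.6 CPM in the controls, 24.9 and 127 CPM in DM-22, and 67.4 and 69.9 CPM in DM+SGLT2i. Slc4a9 (chr18:36528147-36556273, plus strand) encodes the basolateral exchanger AE4 of type B cells. Its level was 29.8, 50.9 and 53.3 CPM in the controls, 13.9 and 61.2 CPM in DM-22, and 40.8 and 37.7 CPM in DM+SGLT2i. For both genes the lowest and the highest of the 7 libraries were the 2 DM-22 libraries, 5.11-fold apart for Slc26a4 and 4.39-fold apart for Slc4a9, while both libraries of DM+SGLT2i were close to each other. The log2 fold change of DM-22 over C was -0.43 for Slc26a4 (SE 0.61, adjusted p = 0.869) and -0.55 for Slc4a9 (SE 0.59, adjusted p = 0.832). Without DM-22 replicate 1 the same differences turned to 0.74 and 0.49, and without DM-22 replicate 2 they were -1.59 and -1.60. These fits left a single DM-22 library and hold no spread within DM-22, so only the differences are given. The differences of 0.28 and 0.41 in DM+SGLT2i versus DM-22 likewise turned to -0.89 and -0.64 without DM-22 replicate 1. Without DM-22 replicate 2 they were 1.44 and 1.46. The direction of both genes in DM-22 was thus set by which library was kept.

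Slc4a1 and Slc26a4 differed in opposite ways between the DM-22 libraries. The ratio of Slc4a1 to Slc26a4 CPM was 1.78, 0.633 and 0.622 in the controls, 4.47 and 0.683 in DM-22, and 0.912 and 1.13 in DM+SGLT2i. The ratio was thus highest in DM-22 replicate 1 and next highest in C replicate 2. The ratio of Slc26a4 to Slc4a9 CPM stayed between 1.44 and 2.20 in the 7 libraries. Among other genes known from intercalated cells, some split in the same way and some did not, and the ones named here were picked after their values were seen. Aqp6, an intracellular water and anion channel of type A cells, was at 223 CPM in DM-22 replicate 1 and 82.2 CPM in DM-22 replicate 2. Slc26a7, a basolateral anion exchanger of medullary type A cells, was at 7.47 and 1.27 CPM in the same libraries. Insrr, the alkali-sensing receptor of type B cells, was at 8.13 CPM in DM-22 replicate 1 and 38.9 CPM in DM-22 replicate 2. Against this split, Slc4a8, the sodium-driven exchanger of type B cells, was at 21.7 and 11.5 CPM in the same order. Kit, a receptor gene of intercalated cells that was assigned to neither type here, was at 15.4 and 22.1 CPM. The high thick ascending limb and Slc14a2 values of DM-22 replicate 1 moved with this split, as did its low values for the distal convoluted tubule gene Slc12a3 (340 against 1523 CPM) and the connecting tubule gene S100g (229 against 806 CPM). The part of the tissue sampled in these differences was not tested.

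**Figure D2:**
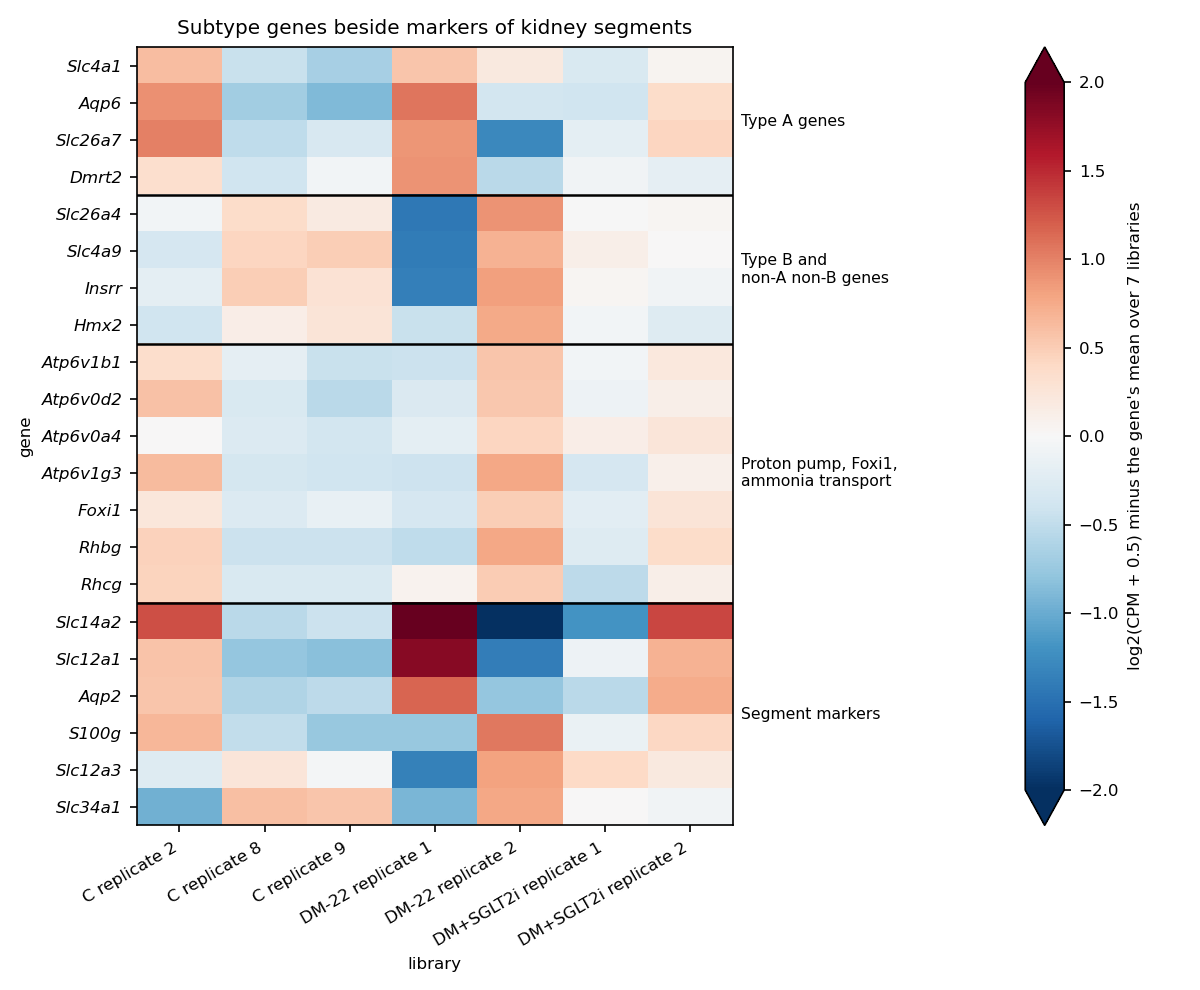
Deviation of each gene from its own mean over the 7 libraries on the log2(CPM + 0.5) scale (colour, with the scale ending at -2 and 2), with genes in rows and libraries in columns. The genes shown were picked after their values were seen. In DM-22 replicate 1 Slc4a1, Aqp6, Slc26a7 and Dmrt2 are above their means and Slc26a4, Slc4a9 and Insrr are far below theirs. Beside them are high Slc14a2 and Slc12a1 and low Slc12a3. Slc4a8, not drawn, went against this split.

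The 4 proton pump subunits were high in DM-22 replicate 2 and low in C replicates 8 and 9, and 3 of them, all but Atp6v0a4, were high in C replicate 2 as well. These subunit isoforms are known in the kidney from intercalated cells, and the a4 subunit also from the proximal tubule. Atp6v1b1 (chr6:83742990-83758855, plus strand), the B1 subunit of the catalytic part, was at 126, 87.1 and 72.3 CPM in the controls, 73.1 and 145 CPM in DM-22, and 94.9 and 114 CPM in DM+SGLT2i. Atp6v0a4 (chr6:38048483-38124586, minus strand), the a4 subunit of the membrane part, was at 343, 283 and 264 CPM in the controls, 297 and 459 CPM in DM-22, and 373 and 403 CPM in DM+SGLT2i. For Atp6v0a4 both DM+SGLT2i libraries lay above all 3 controls, while for Atp6v1b1 the controls spanned the DM+SGLT2i libraries.

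Atp6v0d2 (chr4:19876841-19922605, minus strand), the d2 subunit, was at 60.8, 32.7 and 27.7 CPM in the controls, 33.1 and 59.2 CPM in DM-22, and 37.5 and 43.8 CPM in DM+SGLT2i. Atp6v1g3 (chr1:138273738-138289462, plus strand), the G3 subunit of the stalk, was at 56.5, 28.3 and 27.3 CPM in the controls, 26.9 and 62.0 CPM in DM-22, and 28.4 and 38.8 CPM in DM+SGLT2i. For both of these genes C replicate 2 and DM-22 replicate 2 were the highest libraries and the groups overlapped.

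Which of these 4 subunits differed most from control depended on the libraries kept. In DM-22 without C replicate 2, Atp6v0d2 and Atp6v1g3 were both at 0.55 and Atp6v0a4 was at 0.43 on the log2 scale. Without DM-22 replicate 1, the DM-22 values were 0.81 for Atp6v1g3 and 0.64 for Atp6v0a4. With all diabetic libraries but without C replicate 2, Atp6v0d2 was at 0.49 and Atp6v0a4 at 0.47. With all libraries kept, Atp6v0a4 differed most from control among these 4 subunits. Its log2 fold change over C was 0.32 in DM-22 (SE 0.23, unadjusted p = 0.208) and 0.39 in DM+SGLT2i (SE 0.23, unadjusted p = 0.135), and 0.36 with both diabetic groups together (SE 0.19, unadjusted p = 0.109, adjusted p = 0.988). The 95% interval of the last was -0.10 to 0.82. Leaving out 1 library gave values of 0.20 to 0.52 for the last, the highest without DM-22 replicate 1. Without DM-22 replicate 2 the DM-22 value of 0.32 came to 0.0086. The span of Atp6v0a4 overlaps that of Tmem213 on the other strand and that of D630045J12Rik on the same strand, and the library was directional but the strand setting of the counting is not given in the sources used here. The other 3 subunits had log2 fold changes over C of 0.15 to 0.21 in DM-22 and -0.08 to 0.17 in DM+SGLT2i, with SEs of 0.34 to 0.45. Without C replicate 2 these values were 0.37 to 0.55 in DM-22 and 0.25 to 0.42 in DM+SGLT2i, where Atp6v1g3 turned from -0.08 to 0.25. Without DM-22 replicate 2 all 3 turned in DM-22, to -0.34 for Atp6v1b1, -0.20 for Atp6v0d2 and -0.39 for Atp6v1g3.

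Foxi1 and the ammonia transporter genes were highest in DM-22 replicate 2 and next highest in C replicate 2 or DM+SGLT2i replicate 2. Foxi1 (chr11:34204338-34208089, minus strand) was at 37.6, 26.4 and 28.7 CPM in the controls, 25.2 and 45.1 CPM in DM-22, and 27.5 and 38.3 CPM in DM+SGLT2i. Its log2 fold change over C was 0.14 in DM-22 and 0.08 in DM+SGLT2i (SE 0.30 for both), and every group overlapped every other. Without C replicate 2 these values were 0.29 and 0.23, and without DM-22 replicate 2 the DM-22 value turned to -0.27.

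Rhbg (chr3:88242874-88254709, minus strand), the basolateral ammonia transporter, was at 6.32, 3.20 and 3.21 CPM in the controls, 3.01 and 8.00 CPM in DM-22, and 3.66 and 5.91 CPM in DM+SGLT2i. Its span overlaps the gene model Gm38392 on the same strand, so reads could be split between them. Rhcg (chr7:79593363-79617657, minus strand), found on the apical and basolateral sides, was at 153, 89.9 and 90.3 CPM in the controls, 117 and 159 CPM in DM-22, and 77.6 and 121 CPM in DM+SGLT2i. Both DM-22 levels of Rhcg lay above those of C replicates 8 and 9, and that of C replicate 2 lay between them. The log2 fold change of DM+SGLT2i over DM-22 was -0.48 for Rhcg (SE 0.34, unadjusted p = 0.205, and -0.81 to -0.16 with 1 library left out) and -0.08 for Rhbg (SE 0.52, unadjusted p = 0.88). The Rhbg value was -0.72 without DM-22 replicate 1, 0.56 without DM-22 replicate 2 and 0.019 when libraries were scaled to their totals.

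Per kilobase of exon, the order of the mean levels ran from Atp6v0a4 through Rhcg, Slc26a4, Atp6v1b1, Atp6v1g3, Slc4a1, Atp6v0d2, Foxi1 and Slc4a9 to Rhbg. The means were 69.5 ± 14.2 CPM per kb for Atp6v0a4 and 51.7 ± 14.2 for Rhcg, and 2.46 ± 1.02 for Rhbg (SD, n = 7 libraries). Slc26a4 and Atp6v1b1 averaged 23.9 ± 9.82 and 23.2 ± 6.26 CPM per kb, and Slc26a4 was the higher of them in 4 of 7 libraries. Slc4a1 was above Atp6v0d2 in 3 of 7 libraries, with means of 16.3 ± 5.51 and 15.5 ± 4.85 CPM per kb. Atp6v0d2 was above Foxi1 in 5 libraries, and Atp6v1b1 above Atp6v1g3 and Atp6v1g3 above Slc4a1 in 6 of 7 each. Neighbours in the middle of the order therefore did not keep one order over all libraries, whereas Atp6v0a4 over Rhcg, Rhcg over Slc26a4, Foxi1 over Slc4a9 and Slc4a9 over Rhbg held in all 7. Exon lengths came from all annotated exons of a gene, so a gene with long unused exons has too low a value per kb.

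None of the 10 genes passed an adjusted p of 0.05 (limma, Benjamini-Hochberg over 13976 genes) in any of 4 comparisons, where the share of all genes called was 0% in each. At an unadjusted p under 0.05 also 0 of the 10 passed, against 4.47% of all genes for DM-22 versus C, 1.08% for DM+SGLT2i versus C, 3.91% for DM+SGLT2i versus DM-22 and 2.04% for all diabetic libraries versus C. The libraries of the groups did not overlap for 0 of the 10 genes in DM-22 versus C (20.1% of all genes) and for 0 of the 10 in all diabetic versus C (2.69% of all genes). They did not overlap for 1 of the 10, Atp6v0a4, which was higher in DM+SGLT2i than in C (12.3% of all genes), and for 1 of the 10, Slc4a1, which was lower in DM+SGLT2i than in DM-22 (41.5% of all genes). These counts were at or below the share over all genes. The median log2 fold change of the 10 genes over C was 0.21 in DM-22, with 8 above 0, and 0.06 in DM+SGLT2i, with 6 above 0, beside medians over all genes tested of 0.0045 and -0.013. It was -0.07 in DM+SGLT2i versus DM-22, with 4 above 0, beside 0.0045 over all genes. The medians in DM-22 versus C and in DM+SGLT2i versus DM-22 turned on which DM-22 library was kept. That in DM+SGLT2i versus C uses no DM-22 library, so leaving either out could not move it. In DM-22 versus C the median was 0.63 without DM-22 replicate 1, with 10 above 0, and -0.31 without DM-22 replicate 2, with 3 above 0. In DM+SGLT2i versus DM-22 it was -0.59 without the former, with 0 above 0, and 0.37 without the latter, with 8 above 0. The comparisons with C share the control libraries and are not independent of each other.

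**Figure D3:**
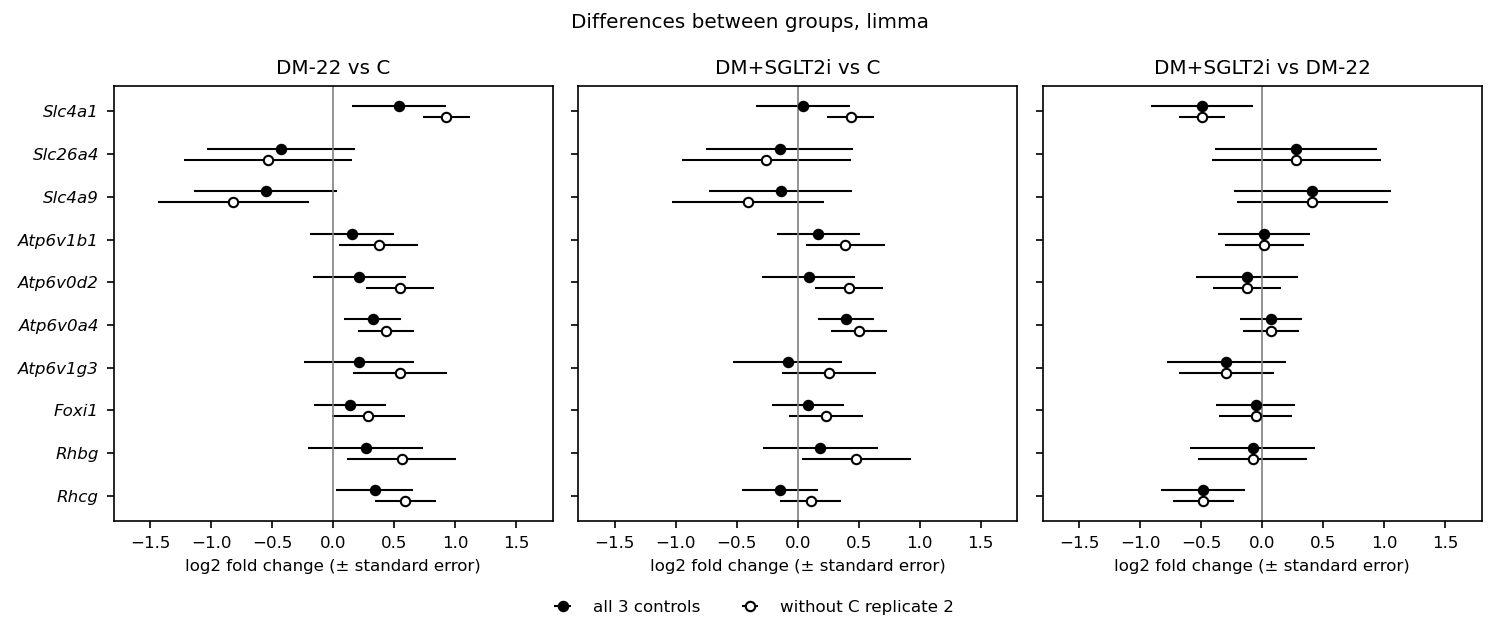
Log2 fold change (horizontal axis, bars ± SE from limma) of each of the 10 genes in 3 comparisons, with all 3 controls (filled) and without C replicate 2 (open). Without C replicate 2 the differences from control of Slc4a1, Atp6v0d2 and the other pump genes lie further to the right, and those of Slc26a4 and Slc4a9 further to the left, in both comparisons with C.

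Without C replicate 2, again 0 of the 10 genes passed the adjusted threshold, where it was passed by 0.0143% of all genes for DM-22 versus C, 0.122% for DM+SGLT2i versus C and 0.2% for all diabetic versus C. At an unadjusted p under 0.05 only Slc4a1 of the 10 passed, in DM-22 versus C (25.2% of all genes), in all diabetic versus C (24.8% of all genes) and in DM+SGLT2i versus DM-22 (10.8% of all genes). Of the 10, 0 passed that level in DM+SGLT2i versus C (17.9% of all genes). In DM-22 versus C both libraries lay above both remaining controls for 4 of the 10 genes, Slc4a1, Atp6v0d2, Atp6v0a4 and Rhcg (groups apart for 59.5% of all genes). In DM+SGLT2i versus C the groups were apart for 8 of the 10 (61.7% of all genes), with Slc26a4 and Slc4a9 lower and 6 genes higher. With all 4 diabetic libraries, the groups were apart for 3 of the 10, Slc4a1, Atp6v0d2 and Atp6v0a4, all higher (35.9% of all genes). The median log2 fold change of the 10 genes over these 2 controls was 0.49 in DM-22 and 0.32 in DM+SGLT2i. In the same order the medians were 0.76 and 0.63 for principal cell markers and 0.74 and 1.43 for connecting tubule markers. Those of tubular injury markers were 0.76 and 2.19, and those of proximal tubule markers were -0.55 and -0.58.

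Other genes of intercalated cells were compared in the same way. Of 22 further intercalated cell genes, 21 had a value and 20 were tested, and none passed the adjusted threshold in any comparison. Their median log2 fold change over C was 0.04 in DM-22 (12 of 20 above 0) and 0.17 in DM+SGLT2i (15 of 20 above 0), and without C replicate 2 it was 0.30 and 0.46 (16 of 20 above 0 in each). Without DM-22 replicate 2 the DM-22 median was -0.11 (9 of 20 above 0). In DM+SGLT2i versus DM-22 the median was 0.17 (12 of 20 above 0), where that of the 10 genes was -0.07. Without DM-22 replicate 1 these medians were 0.05 and -0.59, and without DM-22 replicate 2 they were 0.43 and 0.37. Atp4a, the alpha subunit of the gastric-type H+,K+-ATPase, was at 103, 57.3 and 46.3 CPM in the controls, 90.3 and 126 CPM in DM-22, and 107 and 136 CPM in DM+SGLT2i. Both DM+SGLT2i libraries lay above all controls (groups apart for 12.3% of all genes), and C replicate 2 lay between the DM-22 libraries. Its log2 fold change with all diabetic libraries was 0.80 (SE 0.29, unadjusted p = 0.0314, adjusted p = 0.988), and 1.13 without C replicate 2 (adjusted p = 0.0703). Tmem213, a small membrane protein gene of intercalated cells, differed from C by 0.55 on the log2 scale in DM-22 (SE 0.31, adjusted p = 0.804), and Tfcp2l1, a transcription factor of the collecting duct, had 0.34 in DM+SGLT2i (SE 0.18, unadjusted p = 0.0998). Among those with negative values, Car12, a membrane-bound carbonic anhydrase, had -0.45 in DM-22 (SE 0.43). Atp6v1c2, a pump subunit, had -0.31 in DM-22 and -0.33 in DM+SGLT2i (SE 0.26 for both). For both genes DM-22 replicate 1 lay below all controls and DM-22 replicate 2 above them. In these libraries Car12 was at 127 and 382 CPM, against 261 to 334 CPM in the controls. Atp6v1c2 was at 14.8 and 28.1 CPM, against 23.5 to 26.5 CPM. Hepacam2, an adhesion protein gene, had -0.21 in DM+SGLT2i (SE 0.40). In DM+SGLT2i versus DM-22, Atp12a, the alpha subunit of the colonic-type H+,K+-ATPase, had 1.09 (SE 0.70) from levels of 0.342 to 1.66 CPM, Tfcp2l1 had 0.27 (SE 0.20), Tmem213 had -0.28 (SE 0.34) and the transcription factor Hmx2 had -0.31 (SE 0.42). With all diabetic libraries against C, the vasopressin receptor gene Avpr1a had 0.78 (SE 0.43) and Insrr had -0.34 (SE 0.50). For Hmx2 the DM-22 libraries lay on both sides of the DM+SGLT2i libraries, and for Insrr on both sides of the controls.

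The V-ATPase subunits shared with other cells had no called gene either. Of the 18, 16 had a log2 fold change above 0 in DM-22 versus C (median 0.19) and 9 in DM+SGLT2i versus C (median -0.0039, and 0.068 without C replicate 2), and 2 in DM+SGLT2i versus DM-22 (median -0.18). Over all genes tested, 50.7%, 47.2% and 50.6% were above 0 in the same order. Without DM-22 replicate 2 the counts above 0 were 8 of 18 in DM-22 versus C (median -0.07) and 9 of 18 in DM+SGLT2i versus DM-22 (median 0.00087). Tcirg1, the a3 subunit known from osteoclasts, had the smallest unadjusted p of these subunits among those with a negative value, at -0.31 with all diabetic libraries (SE 0.13, unadjusted p = 0.0486, adjusted p = 0.988). Its level was 23.2, 24.8 and 27.2 CPM in the controls, 21.6 and 17.6 CPM in DM-22, and 21.4 and 20.1 CPM in DM+SGLT2i. All 4 diabetic libraries thus lay below the controls (groups apart for 2.69% of all genes). In DM-22 versus C the smallest p-values of the other subunits belonged to Atp6v0e2 (0.26, SE 0.17) and Atp6v0a2 (0.19, SE 0.14) among those above 0, and Atp6v1b2 was at -0.06 (SE 0.23). The catalytic A subunit gene Atp6v1a was at 0.17 (SE 0.21) and Atp6v1d at -0.19 (SE 0.17) in DM+SGLT2i versus C. In DM+SGLT2i versus DM-22 Atp6v0b was at -0.42 (SE 0.29) and Atp6v1d at -0.34 (SE 0.19), and the subunit genes above 0 were Tcirg1 (0.09, SE 0.17) and Atp6v1a (0.02, SE 0.23), all on the log2 scale.

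The share of the intercalated cell isoform was spread widely among controls, with C replicate 2 above both others. Atp6v1b1 made up 27.8, 17.6 and 15.6% of B subunit RNA (Atp6v1b1 plus Atp6v1b2, per kb) in the controls, 20.1 and 24.6% in DM-22, and 23.6 and 24.8% in DM+SGLT2i. Atp6v0a4 made up 80.6 to 86.8% of Atp6v0a4 plus Atp6v0a1 over the 7 libraries. Atp6v0d2 made up 11.3 to 19.8% of Atp6v0d2 plus Atp6v0d1, and Atp6v1g3 made up 9.44 to 14.9% of Atp6v1g3 plus Atp6v1g1. In each of these pairs but the a subunits, C replicate 2 had the highest share of the 7 libraries and the groups overlapped. Without it, all 4 diabetic libraries lay above both remaining controls for the B subunits (20.1 to 24.8% against 15.6 and 17.6%). The same held for the d subunits (13.7 to 17.0% against 11.3 and 13.4%). It did not hold for the G subunits, where DM-22 replicate 1 was at 9.48% and these controls at 9.88 and 9.44%. Nor did it hold for the a subunits, where that library was at 80.6% and these controls at 80.6 and 81.7%. For levels of single genes, the groups in this comparison were apart, in either direction, for 35.9% of all genes. No such background was computed for the share of an isoform pair. For the a subunits both DM+SGLT2i libraries, at 85.1 and 86.1%, lay above the 3 controls, of which the highest was at 84.7%.

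**Figure D4:**
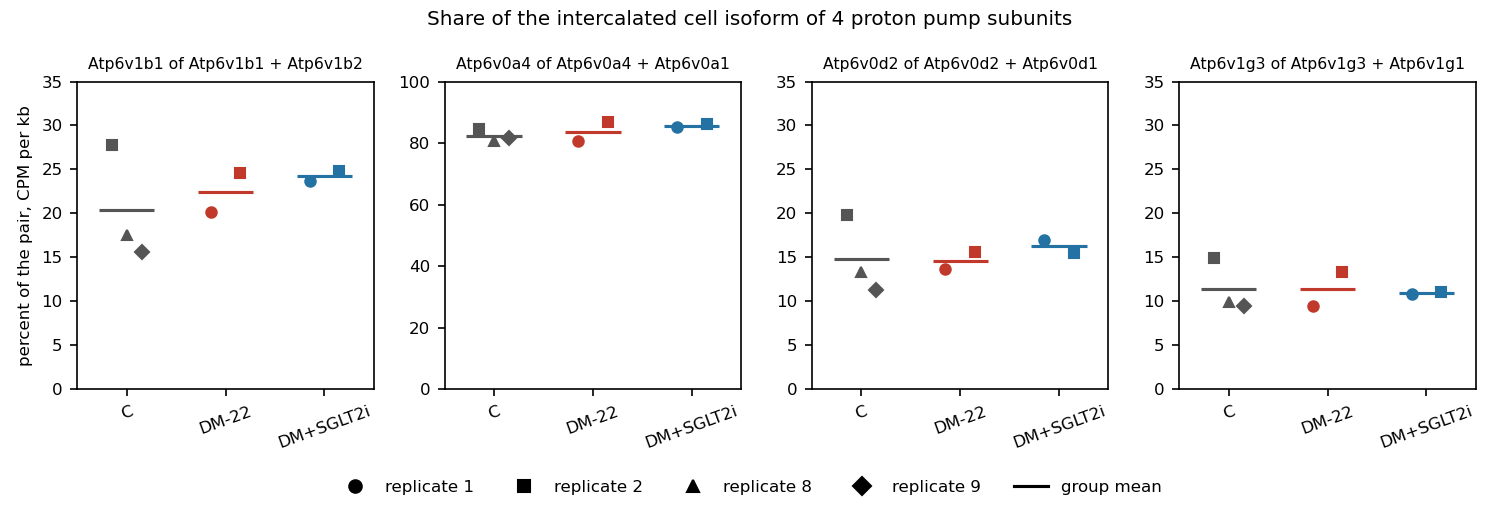
Percent of the summed CPM per kb of an isoform pair that came from the isoform of intercalated cells (vertical axes from 0, with the a subunit axis reaching 100 and the other axes 35) for 4 subunits of the proton pump. Symbols are libraries and bars are group means, and the 3 controls span most of the range for the B, d and G subunits.

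Genes that supply ammonia and bicarbonate upstream of intercalated cells or carry them along the nephron were compared as well, and 0 of 10 passed the adjusted threshold in any comparison. Slc38a3, the glutamine transporter SNAT3, was at 147, 55.8 and 42.1 CPM in the controls, 150 and 32.7 CPM in DM-22, and 223 and 180 CPM in DM+SGLT2i. Both DM+SGLT2i libraries were the highest of all 7 for Slc38a3, and the log2 fold change over C was 1.51 (SE 0.74, unadjusted p = 0.0823). DM+SGLT2i and C were apart for 12.3% of all genes. Pck1, the gluconeogenic enzyme phosphoenolpyruvate carboxykinase, had a log2 fold change of 0.85 in DM+SGLT2i versus C (SE 0.43, unadjusted p = 0.0925), with 2427 and 2043 CPM in DM+SGLT2i against 844 to 1871 CPM in the controls. Car4, a membrane-bound carbonic anhydrase, was lower in DM+SGLT2i than in DM-22 in both libraries (groups apart for 41.5% of all genes). Its log2 fold change was -0.54 (SE 0.21, unadjusted p = 0.0395, adjusted p = 0.881). Slc4a4, the basolateral sodium-bicarbonate cotransporter, had -0.23 in DM-22 versus C (SE 0.46), and Slc9a3, the apical sodium-proton exchanger, had -0.21 (SE 0.27). Glud1, the mitochondrial glutamate dehydrogenase, had 0.25 (SE 0.20) in the same comparison, and Slc12a2, the sodium-potassium-chloride cotransporter that can carry ammonium, had -0.16 in DM+SGLT2i versus C (SE 0.28). Without C replicate 2 the values were -0.53 for Slc4a4, -0.41 for Slc9a3 and -0.41 for Slc12a2. Without that library the DM+SGLT2i versus C value of Pck1 fell to 0.57 and that of Slc38a3 rose to 2.04. Slc4a4 was at 601 and 1377 CPM in DM-22 replicates 1 and 2, against 705, 1424 and 1205 CPM in the controls. DM-22 replicate 1 thus lay below all controls and DM-22 replicate 2 among them.

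Across the 7 libraries, the 10 genes fell into patterns that can be described by Pearson's r of log2(CPM + 0.5), given without a test since the libraries share groups and depth. The closest pair was Foxi1 with Rhbg (r = 0.98), and Rhbg was also the closest gene to Atp6v1b1 (r = 0.97) and Atp6v1g3 (r = 0.96). Slc26a4 was closest to Slc4a9 (r = 0.96), and Slc4a1 was closest to Rhcg (r = 0.78) and farthest from Slc4a9 (r = -0.67). With the mean of the 10 genes, which includes the gene itself, r was 0.99 for Rhbg, 0.45 for Slc4a1 and lowest, at 0.35, for Slc4a9. Of all other genes tested, the 10 most like that mean were S100g, Atp6v0c, Ccrl2, Tspyl4, Klk1b24, Klk1b9, Klk1b1, Klk1b3, Atp6v1h and Klk1b11, with r from 0.98 to 0.99. S100g, the calbindin of the connecting tubule, was at 614, 274 and 227 CPM in the controls, 229 and 806 CPM in DM-22, and 351 and 517 CPM in DM+SGLT2i, high in C replicate 2 and DM-22 replicate 2 as Atp6v1b1, Atp6v0d2 and Atp6v1g3 were. The Klk1b genes are near-identical copies of a kallikrein gene, so their counts could be split among them. Principal cell markers, which mark the neighbouring cells of the collecting duct, summed to 1512, 723 and 699 CPM in the controls, 1560 and 1081 CPM in DM-22, and 792 and 1387 CPM in DM+SGLT2i, and the 10 intercalated cell genes summed to 994, 745 and 692 CPM, 725 and 1212 CPM, and 812 and 951 CPM. Within DM-22 the intercalated cell sum was higher in replicate 2 and the principal cell sum higher in replicate 1, where Aqp2, the vasopressin-regulated water channel, was at 640 against 167 CPM. The sodium channel genes Scnn1a, Scnn1b and Scnn1g and the steroid enzyme gene Hsd11b2, all principal cell markers, were instead higher in replicate 2 (252 against 212 CPM for Scnn1a).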

How the data were processed

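The authors sequenced polyadenylated RNA of renal tissue with a directional library kit, and the submitters' processing notes name bcl2fastq, FastQC, Trim Galore, STAR, edgeR and the mm10 build, with no versions. The deposited values are log2 of CPM (read counts over the library size) that the authors had scaled between libraries by TMM, plus a small constant, so a gene without reads is listed at -4.66. The logarithm was undone and the constant subtracted, and 100% of the values were then whole reads within a tolerance of 0.1 read. The planned test had assumed CPM values and was run on the CPM so recovered. Loci came from the GENCODE release 21 mouse annotation (GRCm38) and promoters from RefSeq (GRCm38.p6).

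Groups came from the sample labels, and all 7 value columns were used (0 columns were left unmapped). Limma 3.58.1 in R 4.3.3 was fitted to log2(CPM + 0.5) for the 13976 of 17537 genes that reached 1 CPM in 2 or more libraries, with 3 groups in 1 fit, empirical Bayes moderation with a trend, two-sided p-values and Benjamini-Hochberg adjustment over all genes tested. A fold change on this scale understates the change of low genes. The alternatives were other pseudocounts, no filter on low values, scaling to library totals, voom weights, the compared groups alone, a replicate block and leaving out each library. The 10 genes and the lists of other genes were chosen with earlier results of these data known. Of the lists, genes were named if called, and otherwise by the 2 smallest unadjusted p-values in each direction in a comparison. Within-library ratios were added after the data were seen.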

Additional observations from a re-analysis of the deposited data

How the results depend on the processing

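With limma, 0 genes passed an adjusted p of 0.05 in any comparison with all libraries, beside 625, 151, 547 and 285 genes at an unadjusted p under 0.05 (DM-22 versus C, DM+SGLT2i versus C, DM+SGLT2i versus DM-22 and all diabetic versus C), and voom called 0 as well, beside 517, 148, 533 and 259. Leaving out C replicate 2 gave 2, 17, 0 and 28 called genes, so the counts over the 7 fits that leave out 1 library ranged from 0 to 2, 0 to 17, 0 to 0 and 0 to 28, and no gene of the 10 was called in any of them (lowest adjusted p 0.0927, Slc4a1). The cause of the change was not tested. With the replicate number as a replicate block over the diabetic libraries, DM+SGLT2i versus DM-22 again had 0 called genes, beside 696 at an unadjusted p under 0.05. Of the 10 genes, Rhcg went from an unadjusted p of 0.205 to 0.0401 with the block (adjusted p 0.734). Over all genes tested, libraries with the same number did not deviate together (correlation -0.041 over 2 pairs), so the numbers were not taken to pair them, although 9 of the 10 genes were higher in replicate 2 than in replicate 1 in DM-22 (all but Slc4a1) and 9 in DM+SGLT2i (all but Slc4a9). Of 520 recomputed fold changes of the 10 genes, 465 kept their direction and side of the threshold and 55 reversed, 52 of these when a library was left out. The 3 others were in DM+SGLT2i versus DM-22, where Atp6v1b1 came to -0.0013 with voom and Foxi1 and Rhbg to 0.051 and 0.019 with scaling to library totals. That scaling moved the median of all genes in this comparison to 0.11. Some of the 465 could not reverse, because the fit leaves the fold change as it was. This holds without the filter, with the compared groups alone and with the replicate block. It also holds when the library left out is in neither of the groups compared. When 1 library was left out, 31 of 40 differences took both signs, and a group then left with 1 library was assumed to vary like the others. In DM-22 versus C they ran from -1.59 to 0.74 for Slc26a4, -1.60 to 0.49 for Slc4a9, -0.34 to 0.64 for Atp6v1b1, -0.20 to 0.63 for Atp6v0d2, -0.39 to 0.81 for Atp6v1g3, -0.27 to 0.55 for Foxi1, -0.37 to 0.91 for Rhbg. In DM+SGLT2i versus C they ran from -0.21 to 0.43 for Slc4a1, -0.41 to 0.0073 for Slc4a9, -0.0068 to 0.39 for Atp6v1b1, -0.14 to 0.42 for Atp6v0d2, -0.30 to 0.25 for Atp6v1g3, -0.15 to 0.32 for Foxi1, -0.13 to 0.50 for Rhbg, -0.47 to 0.18 for Rhcg. In DM+SGLT2i versus DM-22 they ran from -0.89 to 1.44 for Slc26a4, -0.64 to 1.46 for Slc4a9, -0.47 to 0.51 for Atp6v1b1, -0.54 to 0.29 for Atp6v0d2, -0.24 to 0.38 for Atp6v0a4, -0.89 to 0.30 for Atp6v1g3, -0.47 to 0.36 for Foxi1, -0.72 to 0.56 for Rhbg. In all diabetic versus C they ran from -0.87 to 0.29 for Slc26a4, -0.87 to 0.18 for Slc4a9, -0.084 to 0.41 for Atp6v1b1, -0.074 to 0.49 for Atp6v0d2, -0.23 to 0.40 for Atp6v1g3, -0.095 to 0.32 for Foxi1, -0.094 to 0.55 for Rhbg, -0.064 to 0.35 for Rhcg. The other 9 differences kept their sign, at 0.29 to 0.93 for Slc4a1, 0.0086 to 0.64 for Atp6v0a4 and 0.12 to 0.59 for Rhcg in DM-22 versus C, -0.26 to -0.045 for Slc26a4 and 0.31 to 0.50 for Atp6v0a4 in DM+SGLT2i versus C, -0.67 to -0.32 for Slc4a1 and -0.81 to -0.16 for Rhcg in DM+SGLT2i versus DM-22, and 0.040 to 0.68 for Slc4a1 and 0.20 to 0.52 for Atp6v0a4 in all diabetic versus C. The 10 genes had at least 150 reads in every library, and the SEs in comparisons of 2 groups were 0.23 to 0.66 on the log2 scale.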
